A study of Mus musculus with 2 samples.

Results

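The paired-box (Pax), LIM homeobox (Lhx), Distal-less (Dlx), sine oculis homeobox, NeuroD, neurogenin, Olig and class III and class IV POU genes encode transcription factors that set the identity of organs and neurons in the embryo. The promoters and surroundings of these genes were examined in mouse lung. The set held every protein-coding gene of the GENCODE M21 annotation (mm10) whose symbol is Pax, Lhx, Dlx, Neurod, Neurog, Olig, Pou3f or Pou4f followed by digits alone, and the sine oculis homeobox genes by the same rule, which gave 46 of 21938 protein-coding genes in 9 families. No measured value entered that rule, but the genes were chosen with earlier results of these data known.

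Chromatin accessibility had been measured by DNase-seq, an assay that sequences the ends left by DNase I, an enzyme that cuts accessible DNA in preference to packed DNA. The tissue was whole lung of male B6CASTF1/J mice, the first-generation hybrid of C57BL/6J and CAST/EiJ, at 14 days of age. There was 1 group with 2 libraries: replicate 2 came from 3 pooled males, replicate 1 was labelled male without mention of a pool, and both carry the same donor record. Nothing in the labels says whether the libraries share animals, so the spread between them may be technical.

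Most of these families act through DNA-binding domains that recognise short AT-rich or E-box sequences, and many of their genes are kept silent by Polycomb complexes in cells where they do not act. Their promoters often lie in CpG islands, stretches of DNA rich in the dinucleotide CG that are open in most tissues when they belong to broadly used genes. Some have a known place in the lung as well: NeuroD1 acts in pulmonary neuroendocrine cells. In whole tissue, fewer cells of a type with an open site and less accessibility per cell cannot be told apart.

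A gene was counted as open in a library when a peak of that library, taken from the shorter of its deposited lists, lay within 1 kb of any annotated transcript 5′ end, and as closed when none did. Each peak carries a score given by the authors, which is quoted below together with its percentile in the list of its own library. Replicate 1 held 94786 peaks and replicate 2 held 77403, and the read depth of both is unknown. Promoters of lung genes were open. Of 12 lung cell markers, 11 had a promoter peak in both libraries; Abca3, a lipid transporter of surfactant-making cells, stood at percentiles 97.3 and 96.8, Col1a1, a collagen of fibroblasts, at 95.0 and 89.8, and Scgb1a1, the club cell secretoglobin, had no promoter peak in either.

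Sequences of shared peaks that carry the results are given first, on the plus strand of mm10, with capitals for bases that lay in a footprint of both libraries (a footprint is a short stretch protected from cutting). The first 2 are the strongest promoter peak among the 46 genes and that of the B cell factor Pax5. The other 2 are the strongest distal peaks near 2 genes whose own promoters had no peak.

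Six5 promoter peak, chr7:19093901-19094140: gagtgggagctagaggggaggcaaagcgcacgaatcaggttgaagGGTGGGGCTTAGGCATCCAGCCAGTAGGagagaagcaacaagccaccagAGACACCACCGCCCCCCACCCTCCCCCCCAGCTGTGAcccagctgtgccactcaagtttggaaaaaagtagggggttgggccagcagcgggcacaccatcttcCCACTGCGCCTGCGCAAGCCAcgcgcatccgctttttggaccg
Pax5 promoter peak, chr4:44704441-44704620: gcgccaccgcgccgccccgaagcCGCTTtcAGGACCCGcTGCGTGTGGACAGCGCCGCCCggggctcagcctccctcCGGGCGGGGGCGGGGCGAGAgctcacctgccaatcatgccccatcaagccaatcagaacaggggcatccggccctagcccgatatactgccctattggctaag
Neurod2 distal peak, chr11:98342701-98342860: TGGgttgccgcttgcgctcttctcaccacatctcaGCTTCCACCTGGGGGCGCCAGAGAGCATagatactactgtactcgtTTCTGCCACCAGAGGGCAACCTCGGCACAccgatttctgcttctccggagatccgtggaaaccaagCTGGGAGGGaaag
Dlx3 distal peak, chr11:95106961-95107120: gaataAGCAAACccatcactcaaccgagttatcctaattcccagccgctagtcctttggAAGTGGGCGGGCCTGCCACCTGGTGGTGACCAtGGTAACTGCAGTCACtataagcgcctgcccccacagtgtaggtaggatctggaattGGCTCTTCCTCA

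Of the 46 regulators, 23 were open in replicate 1 (50%) and 16 in replicate 2 (34.8%), a mean of 42.4% ± 10.8 (SD, n = 2). Over all protein-coding genes the shares were 66.6% and 64.1%, a mean of 65.4% ± 1.74. In both libraries 16 regulators (34.8%) were open, against 63.6% of all genes. A promoter peak was found in exactly 1 library for 7 regulators, against 3.62% of all genes, and in neither for 23 (50%), against 32.8%. These are descriptions of 2 libraries of 1 group. No test was made, because the genes share the same libraries and were chosen with earlier results of these data known.

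**Figure D1:**
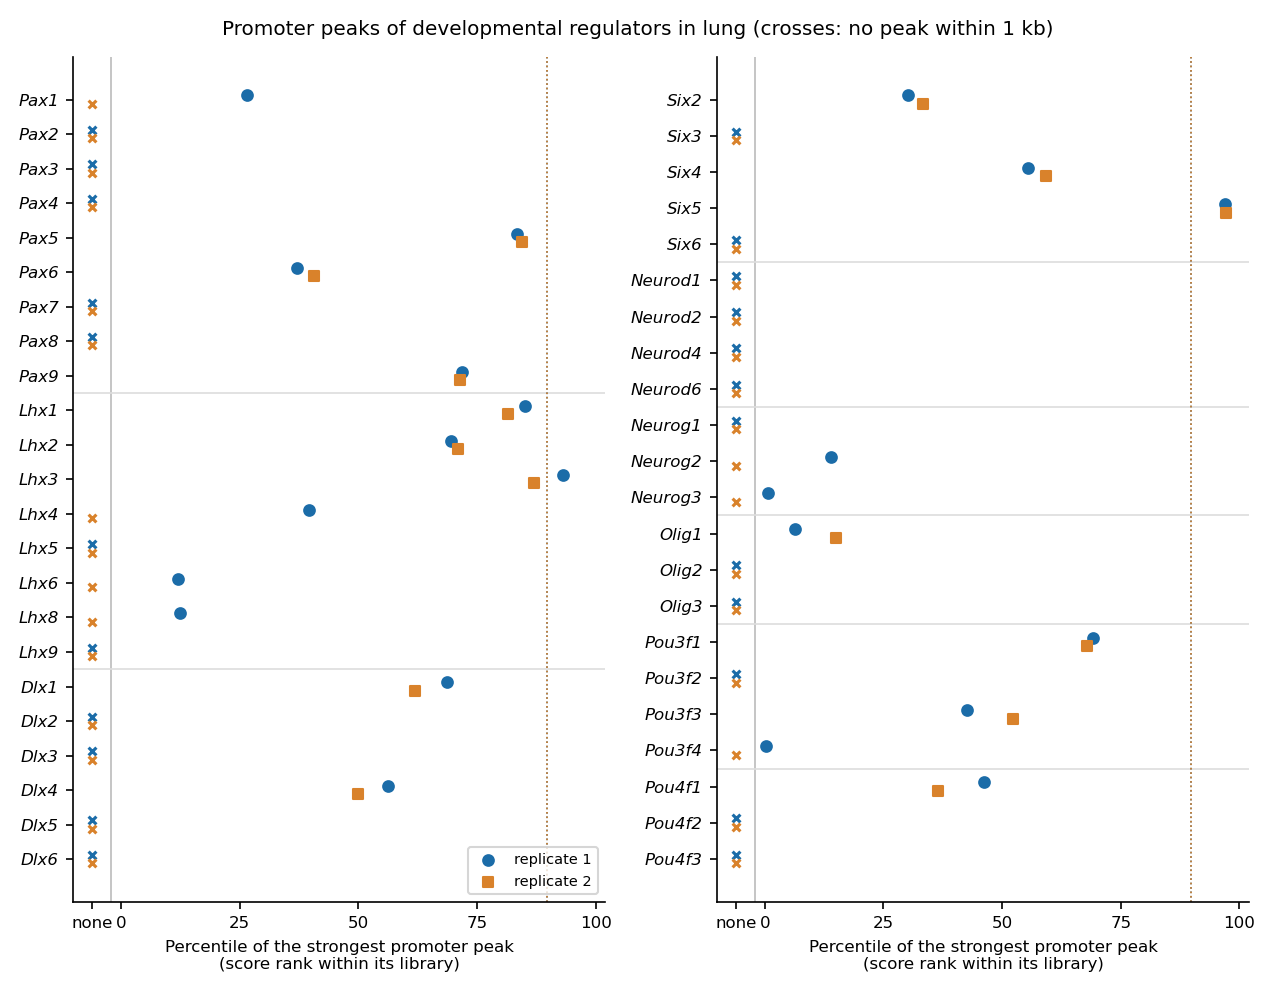
Percentile of the strongest promoter peak of each regulator reported by name within the peak list of its own library (horizontal axis) in replicate 1 (circles) and replicate 2 (squares), with crosses at "none" for no peak within 1 kb. The dotted lines mark the median over all protein-coding genes with a promoter peak, 89.9 in replicate 1 and 89.7 in replicate 2, and the grey horizontal lines separate families. Only Six5 lies to the right of the lines in both libraries, and the 7 genes with a circle and a cross all have their circle below the 50th percentile.

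Where a promoter peak was present, it was usually a modest one. Its median percentile was 46.2 in replicate 1 and 64.9 in replicate 2 over the open regulators, against 89.9 and 89.7 over all open genes. Medians below those of all open genes were also found in other lists named below. They were 77.1 and 75.7 for lung regulators, 71.8 and 72.5 for lung cell markers and 62.5 and 81.1 for Hox genes. Polycomb genes stood higher, at 93.7 and 92.6. At or above the 90th percentile stood 2 regulators in replicate 1 (8.70% of those open) and 1 in replicate 2 (6.25%), against 49.7% and 49.1% of all open genes. The peaks under the 50th percentile numbered 12 in replicate 1 and 5 in replicate 2, against 11.8% and 11.9% of all open genes. For each of the 16 genes open in both libraries the strongest peaks of the libraries overlapped, and their percentiles differed by 9.78 points at most, with a median of 3.62.

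The sine oculis genes encode homeodomain proteins that work with Eya and Dach cofactors. Six5, which lies next to the gene of the myotonic dystrophy kinase, had the highest promoter peak of all 46 genes. Its score was 11.7 in replicate 1 (percentile 97.0) and 13.3 in replicate 2 (97.1). The centre of that shared peak, printed above, lay at −514 bp, counted from the nearest 5′ end with upstream positions negative, and between annotated genes. The libraries gave 3 promoter peaks each, and the strongest held 7 footprints in replicate 1 and 4 in replicate 2.

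Six4, a factor of muscle and sensory organs, scored 1.39 and 1.68 in replicates 1 and 2 (percentiles 55.4 and 59.3). The shared peak of Six4 was centred at −24 bp (chr12:73113381-73113580). Six2, which maintains nephron progenitors, stood lower, at percentiles 30.1 and 33.3.

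Six3 and Six6, regulators of forebrain and eye, were open in neither library. Six3 lies 55.0 kb from Six2 and had 2 shared distal peaks, the stronger at percentiles 78.3 and 67.3. Six6 had no peak of any kind within its body or 20 kb of it. The 6 cofactor genes of the Eya and Dach families were all open in replicate 1, and 4 of them in both. Eya3 stood at percentiles 94.6 and 95.7 and Dach1 at 63.4 and 65.1, while Eya2 and Eya4 had a peak in replicate 1 alone, at 22.5 and 18.5.

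Some markers of muscle and kidney, tissues in which sine oculis and Pax genes act, were open, at lower shares than over all genes. Of 6 skeletal muscle markers, 2 were open in both libraries (33.3%, against 63.6% of all genes) and 4 in neither. The myosin light chain gene Mylpf was at 94.8 and 94.0 and the creatine kinase gene Ckm at 89.1 and 81.5, whereas Acta1 and Myf5 had no promoter peak. Of 5 kidney markers, 2 were open in both (40%), 1 in replicate 1 alone and 2 in neither. The salt transporter Slc12a3 stood at 51.7 and 69.4 and Cdh16 at 28.8 and 37.6, and Slc12a1 and Umod had none. The part of such cells in the peaks of the regulators was not tested.

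The Pax family divided into 3 genes open in both libraries, 1 in replicate 1 alone and 5 in neither. Pax5, which commits lymphoid cells to the B cell fate, had the highest Pax promoter peak, with a score of 4.12 in replicate 1 (percentile 83.4) and 4.33 in replicate 2 (84.6). It lay in an intron, centred −514 bp from an inner 5′ end, and is printed above. Counted from the outermost 5′ end alone, Pax5 was open in neither library. Of 6 B cell markers only Ebf1, a factor also used outside B cells, was open, at percentiles 82.6 and 87.5. The other 5, Blk among them, had no promoter peak in either library. The share open in both was thus 16.7%, against 63.6% of all genes. These markers are poor in promoter CpG, with a median observed over expected of 0.186 (defined below). Of all genes under 0.4 by that measure, 16.3% were open in both, so the count lay near that share. Ebf1 stood at 1.00. The part of B cells in the Pax5 peak was not tested.

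Pax9, which forms pharyngeal pouches, thymus and teeth, scored 2.36 and 2.41 (percentiles 71.8 and 71.5) at an inner 5′ end, in the untranslated region at chr12:56695461-56695660. Its relative Pax1, a gene of the vertebral column and thymus, had a peak in replicate 1 alone, with a score of 0.735 and a percentile of 26.5. In replicate 2 only the longer list had a peak at Pax1. Of 4 thymic epithelium markers, 2 were open in both (50%, against 63.6% of all genes) and 2 in neither. Aire stood at 74.0 and 63.1, Prss16 at 60.2 and 46.5, and Foxn1 and Psmb11 had no peak. Pax6, the regulator of eye and pancreatic islets, was open in both libraries at percentiles 37.0 and 40.7.

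Pax2, Pax3, Pax4, Pax7 and Pax8 were open in neither library, yet their surroundings differed. Pax2, a kidney and ear regulator, had 2 and 1 distal peaks in replicates 1 and 2, and its shared one was centred at −1185 bp, just outside the promoter window, at percentiles 59.1 and 49.6. Pax7, the satellite cell factor, had 4 and 2 distal peaks. Its stronger shared peak stood at percentiles 33.5 and 28.0. Pax4, which acts in pancreatic beta cells, had 2 shared distal peaks, the stronger at 82.2 and 70.1, and Pax8, a thyroid and kidney factor, had 1, at 74.3 and 68.1. Pax3, a factor of neural crest and muscle precursors, had no peak over 20 kb on each side or in its body. Of 5 thyroid markers, 3 were open in both (60%, against 63.6% of all genes), 1 in replicate 1 alone and 1 in neither. Tshr, the thyrotropin receptor, stood at 88.9 and 91.3 and the iodide transporter Slc5a5 at 84.5 and 73.1.

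The LIM homeobox genes had 3 members open in both libraries, 3 in replicate 1 alone and 2 in neither. Lhx3, a regulator of the pituitary and of motor neurons, came next after Six5 among the 46 genes, with a score of 7.93 in replicate 1 (percentile 93.1) and 5.13 in replicate 2 (87.1). The peak (chr2:26208221-26208380) was centred −11 bp from the 5′ end and overlapped a noncoding exon of the antisense gene Gm27196. Lhx1, which acts in kidney and head formation, scored 4.51 and 3.65 (85.0 and 81.5) at chr11:84522681-84522860, −59 bp from an inner 5′ end. Lhx2, a regulator of forebrain, eye and hair follicle, scored 2.17 and 2.37 (69.5 and 71.0) at chr2:38350941-38351120, at 261 bp. With the outermost 5′ end alone, Lhx1, Lhx2, Pax6, Pax9 and Dlx1 were, like Pax5, open in neither library.

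Lhx4, Lhx6 and Lhx8 had promoter peaks in replicate 1 alone. Lhx4, a partner of Lhx3 in the pituitary, scored 0.962 (percentile 39.6), and its peak centre lay 818 bp from the 5′ end. Lhx6, which acts in forebrain interneurons, scored 0.530 (12.01), and Lhx8, which acts in cholinergic neurons and teeth, scored 0.537 (12.5). All 3 were low peaks in replicate 1. Lhx5, a forebrain factor, and Lhx9, a factor of gonad and limb, were open in neither library, although the longer lists of both libraries had peaks at Lhx9.

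The LIM-binding partners were widely open: 5 of 6 in both libraries and 1 in neither. Lmo4 stood at percentiles 93.9 and 95.0, Ldb1, the adaptor that joins LIM proteins, at 90.02 and 88.9, and Lmo3 had none. The LIM homeobox genes outside the Lhx names counted 2 of 4 open in both, 1 in replicate 1 alone and 1 in neither. Isl1 stood at 50.1 and 44.0, Lmx1b at 27.9 and 26.6, and Isl2 had none.

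The Dlx genes, which pattern the jaws, forebrain interneurons and skin appendages, lie in pairs, and at each pair at most 1 gene was open. Dlx1 scored 2.10 and 1.80 (percentiles 68.6 and 62.0) at chr2:71529581-71529720, whereas Dlx2, 9.43 kb away, was open in neither. A shared distal peak lay at −1276 bp from Dlx2, at percentiles 78.0 and 76.2, and falls within the 20 kb flank of Dlx1 as well. Dlx4 scored 1.42 and 1.35 (56.2 and 49.9), its peak at chr11:95146161-95146400 centred −17 bp from the 5′ end. Dlx3, 15.2 kb away, was open in neither library. Dlx5 and Dlx6, 9.24 kb apart, were also closed, and they share 1 distal peak, at percentiles 56.7 and 34.5.

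Among the POU genes, Pou3f1, which drives myelination by Schwann cells, was the highest, with scores of 2.14 and 2.15 (percentiles 69.1 and 67.9). Its peak, at chr4:124657361-124657520, was centred 643 bp from the 5′ end. With a 500 bp window the gene had a promoter peak in replicate 1 alone, which held 2 promoter peaks against 1 in replicate 2. Of 6 Schwann cell markers, 2 were open in both libraries (33.3%, against 63.6% of all genes) and 4 in neither. Erbb3 stood at 76.5 and 60.5, and Cdh19 and Foxd3 had none. Pou3f3, a factor of kidney and cortex, scored 1.03 and 1.43 (42.6 and 52.4) at chr1:42695619-42695735, within 1 kb of the noncoding gene Pantr1 too. Pou4f1, a factor of sensory neurons, stood at 46.2 and 36.6.

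Pou3f4, an inner ear factor on chromosome X, had a peak in replicate 1 alone, with a score of 0.269 at percentile 0.327, near the bottom of the list. Pou3f2, a hypothalamic factor, was open in neither and had no peak over its body or flanks. Pou4f2, a factor of retinal ganglion cells, was open in neither and had 2 shared distal peaks, at percentiles 56.6 and 17.1 for one and 48.4 and 26 for the other. Pou4f3, a hair cell factor, was open in neither and had 1 shared distal peak, centred 1205 bp from its nearest 5′ end, at percentiles 74.9 and 46.1.

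Few of the neuronal basic helix-loop-helix genes were open in both libraries. None of the 4 Neurod genes was open in either library, none of the 3 Neurog genes was open in both, and Olig1 was the single open Olig gene. Olig1, an oligodendrocyte factor, stood at percentiles 6.38 and 14.99, the lowest of the 16 genes open in both. Neurog2, which commits cortical and sensory progenitors to neurons, scored 0.559 (percentile 14.0) in replicate 1 alone. Neurog3, which starts the endocrine fate in the pancreas, scored 0.297 (0.638) in replicate 1 alone. Neurog1 was open in neither and had 1 shared distal peak, at 43.5 and 18.5.

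Neurod1, which acts in islet and neuroendocrine cells, had no distal peak in either library, but a shared peak in its coding exon at 2421 bp (chr2:79454241-79454420; percentiles 80.3 and 59.0) that lies at the start of another annotated gene, Gm26755. Neurod4 had 1 distal peak, in replicate 1 alone. Neurod6, a cortical factor, had no peak over its body or flanks, nor had Olig2, the oligodendrocyte and motor neuron factor, or Olig3, a factor of the dorsal spinal cord. In all, 6 of the 46 genes had no peak of any kind in that span in either library, against 15.7% of all genes. They were Pax3, Six6, Neurod6, Olig2, Olig3 and Pou3f2.

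Most partners and inhibitors of these bHLH factors were open in both libraries, and most of the neuronal relatives were not. Of 9 dimer partners and inhibitors, 8 were open in both libraries and 1 in replicate 1 alone. Tcf3, the common dimer partner, stood at percentiles 95.1 and 97.4, and Hes6 at 94.6 and 97.3. Of 8 other proneural bHLH genes, 2 were open in both, 2 in replicate 1 alone and 4 in neither. Atoh8 stood at 80.3 and 70.7, and Bhlhe22 and Bhlhe23 had none. Of 7 neuroendocrine markers, 5 were open in both (71.4%, against 63.6% of all genes), 1 in replicate 1 alone and 1 in neither. Chgb, a secretory granule protein, stood at 89.9 and 84.0, Syp, a vesicle protein, at 70.0 and 73.0, and Ddc had none. Of 8 neuron markers, 5 were open in both (62.5%), 1 in replicate 1 alone and 2 in neither. Snap25 stood at 85.3 and 71.8, Syn1 at 76.8 and 76.4, and Elavl3 and Tubb3 had none. The part of neuroendocrine cells and nerve in the peaks of the Neurod and Neurog genes was not tested.

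All 7 genes open in exactly 1 library were open in replicate 1, whose list is the longer one, at percentiles between 0.327 and 39.6. Over all genes 3.04% were open in replicate 1 alone, 667 genes, against 128 in replicate 2 alone. The longer lists had a promoter peak at 30 regulators in replicate 1 (65.2%) and 23 in replicate 2 (50%), against 70.7% and 68.3% of all genes. They had a replicate 2 peak at 5 of the 7, namely Pax1, Lhx6, Neurog2, Neurog3 and Pou3f4. Of the 23 regulators closed in both libraries, 7 had a peak of the longer list in at least 1 library and 2, Dlx6 and Lhx9, in both. For 12 of the 46 genes no base of the promoter window reached a false discovery rate of 0.05 for its cut rate in either library, against 27.8% of all genes.

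Many closed promoters of the regulators were not poor in CpG, although the share of open regulators was highest in the class richest in CpG. CpG density was taken as the observed over expected number of CG in a window of about 1 kb around each 5′ end, the highest over the ends of a gene. Its median was 0.729 over the 46 genes, from 0.200 to 1.02, against 0.627 over all genes. By family the median was lowest for the Neurod genes, at 0.330. At 0.6 or above lay 38 regulators, of which 16 were open in both libraries (42.1%) and 16 in neither (42.1%). Of the 11528 protein-coding genes at 0.6 or above, 92.9% were open in both and 4.59% in neither. Among genes with a single 5′ end in that class, 4 of 14 regulators were open in both and 8 in neither, against 79.5% and 14.7% of all such genes.

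**Figure D2:**
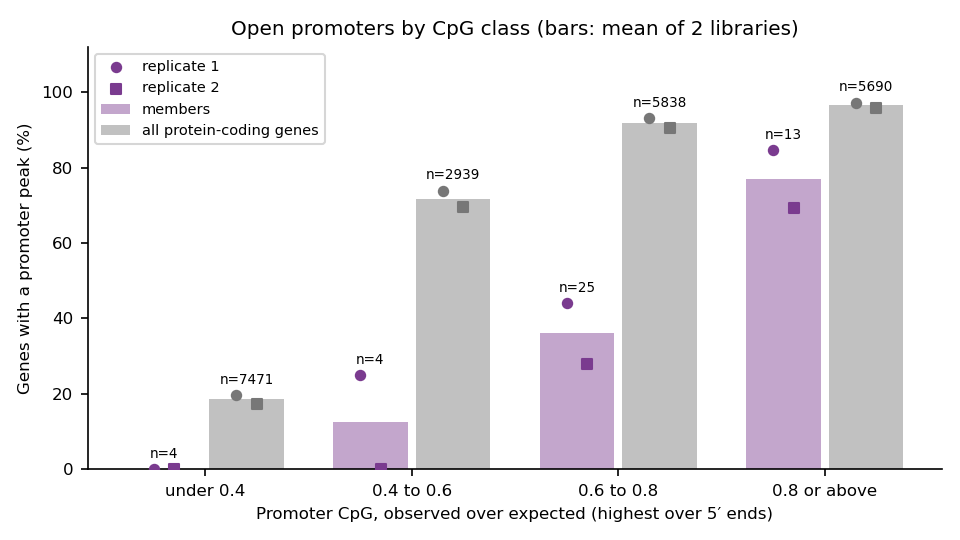
Share of genes with a promoter peak (vertical axis, percent) by class of promoter CpG observed over expected (horizontal axis), for the 46 regulators (purple) and all protein-coding genes (grey). Bars are means of the 2 libraries, circles are replicate 1, squares are replicate 2, and n is the number of genes. In the class from 0.6 to 0.8 the purple points lie at 44% and 28% and the grey points at 93.1% and 90.4%.

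The share of open genes was lower among the regulators than among all genes in every CpG class. From 0.6 to 0.8, 11 of 25 regulators were open in replicate 1 (44%) and 7 in replicate 2 (28%), against 93.1% and 90.4% of all genes. At 0.8 or above, 11 of 13 regulators were open in replicate 1 (84.6%) and 9 in replicate 2 (69.2%), against 97.2% and 95.9%. From 0.4 to 0.6, 1 of 4 was open in replicate 1 and none in replicate 2, against 73.9% and 69.4%, and below 0.4 none of 4 regulators was open, against 19.7% and 17.3% of all genes. Other gene sets went both ways. Over all their genes the median CpG was 0.722 for the 39 Hox genes and 0.806 for the 20 lung regulators. It was 0.186 for the B cell markers, 0.285 for kidney, 0.305 for lung cell, 0.375 for skeletal muscle and 0.419 for thymic epithelium markers. Schwann cell markers stood at 0.468, thyroid and neuroendocrine markers at 0.573 each and neuron markers at 0.762. Of 29 Hox genes at 0.6 or above, 7 were open in both and 18 in neither, and all 16 lung regulators of that class were open in both.

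A CpG-rich and a CpG-poor closed promoter are shown to compare their letters, printed 5′ to 3′ on the strand of the gene from RefSeq (GRCm38.p6), from upstream of the gene start into its first bases, with every CG in capitals. The Olig2 promoter (plus strand) holds 25 CG and the Neurod6 promoter (minus strand) 3, and neither had a peak. RefSeq promoters were matched for 35 of the 46 genes.

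Olig2, chr16:91225300-91225599: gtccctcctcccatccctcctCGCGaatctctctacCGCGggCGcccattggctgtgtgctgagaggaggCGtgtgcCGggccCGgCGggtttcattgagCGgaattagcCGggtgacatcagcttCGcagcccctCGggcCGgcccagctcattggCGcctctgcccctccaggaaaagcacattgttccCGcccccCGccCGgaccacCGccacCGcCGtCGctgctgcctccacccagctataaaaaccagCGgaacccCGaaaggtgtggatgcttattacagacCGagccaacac
Neurod6, chr6:55681214-55681513: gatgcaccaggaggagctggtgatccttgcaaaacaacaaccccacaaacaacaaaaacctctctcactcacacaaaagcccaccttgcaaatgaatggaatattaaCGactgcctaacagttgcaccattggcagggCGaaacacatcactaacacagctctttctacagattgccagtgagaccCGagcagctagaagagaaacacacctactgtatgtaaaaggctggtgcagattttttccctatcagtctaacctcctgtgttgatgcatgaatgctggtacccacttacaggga

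Regulators of the lung itself, and the complexes that silence developmental genes, were open with few exceptions. Of 20 lung regulators, 19 were open in both libraries and 1 in 1 library. Etv5 stood at percentiles 97.1 and 98.99 and Id2 at 97.3 and 98.3, while Tbx5, a limb, heart and lung factor, had a peak in replicate 2 alone. All 14 Polycomb genes were open in both, led by Cbx8 at 99.5 and 99.6 and Jarid2 at 99.6 and 99.3. The 3 repressors of neuronal genes were open too, with Rcor1 at 98.6 and 99.5 and Rcor2 at 82.5 and 80.6. Of the 39 Hox genes, 11 were open in both, 7 in replicate 1 alone and 21 in neither, so that 28.2% were open in both. Hoxa5, which acts in lung development, stood at 90.4 and 87.3 and Hoxa4 at 91.2 and 86.4, and Hoxa11 and Hoxa13 had none.

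Peaks away from the promoters were present at a similar share of the regulators and of all genes. Distal peaks, more than 1 kb from every gene start and within a gene or 20 kb of it, were found at 35 of the 46 genes in replicate 1 (76.1%) and 30 in replicate 2 (65.2%), against 73.4% and 69.1% of all genes. The median count was 1 in each library, against 2 and 1 over all genes. Per 100 kb of span the mean was 2.70 and 1.91, against 3.43 and 2.75. A distal peak shared by both libraries was present at 29 regulators, against 67% of all genes, and 3 or more at 5, against 30.9%. Of the 23 regulators closed in both libraries, 14 had a shared distal peak, against 40.6% of all genes closed in both.

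Those 5 genes were Dlx3 and Lhx3 with 4 shared distal peaks each and Lhx5, Neurod2 and Neurog2 with 3 each, and none but Lhx3 was open in both libraries. The highest distal peak of all 46 genes lay −13132 bp from the Neurod2 5′ end and is printed above, with scores of 11.0 and 8.37 (percentiles 96.5 and 92.8). A further Neurod2 peak at −15792 bp (chr11:98345361-98345520) stood at 86.4 and 79.7. Beyond both, at −18992 bp, lay a shared peak at the start of another gene, Ppp1r1b (60.5 and 44.0). Neurod2 is a factor of cortical neurons, and its own promoter window held no base at a false discovery rate of 0.05. The Dlx3 peak printed above, at −13079 bp, scored 5.90 and 3.99 (89.2 and 83.2), and the Dlx3 peak nearest to the promoter lay at −1409 bp (chr11:95118621-95118800; 83.4 and 73.6). Both Dlx3 peaks lay between genes.

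At Lhx5 the highest distal peak (chr5:120440821-120441000) lay in the untranslated region at the far end of the gene, at 9211 bp, with scores of 7.71 and 3.21 (92.8 and 78.8). At Neurog2 the higher peaks lay at −7685 bp (chr3:127625381-127625540; 81.0 and 71.6) and in the coding exon at 1155 bp (chr3:127634221-127634360; 80.3 and 55.9). The 4 shared distal peaks of Lhx3 were lower, the highest of them at 71.9 and 29.2. Strong distal peaks of both libraries thus lay near closed promoters at Neurod2, Dlx3 and Lhx5. Among the strongest promoter peaks, those of Lhx4 (818 bp) and Pou3f1 (643 bp) had the centres nearest to the 1 kb limit. Just beyond it lay shared distal peaks of Neurog2 (1155 bp), Pax2 (−1185 bp), Pou4f3 (1205 bp) and Dlx2 (−1276 bp).

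**Figure D3:**
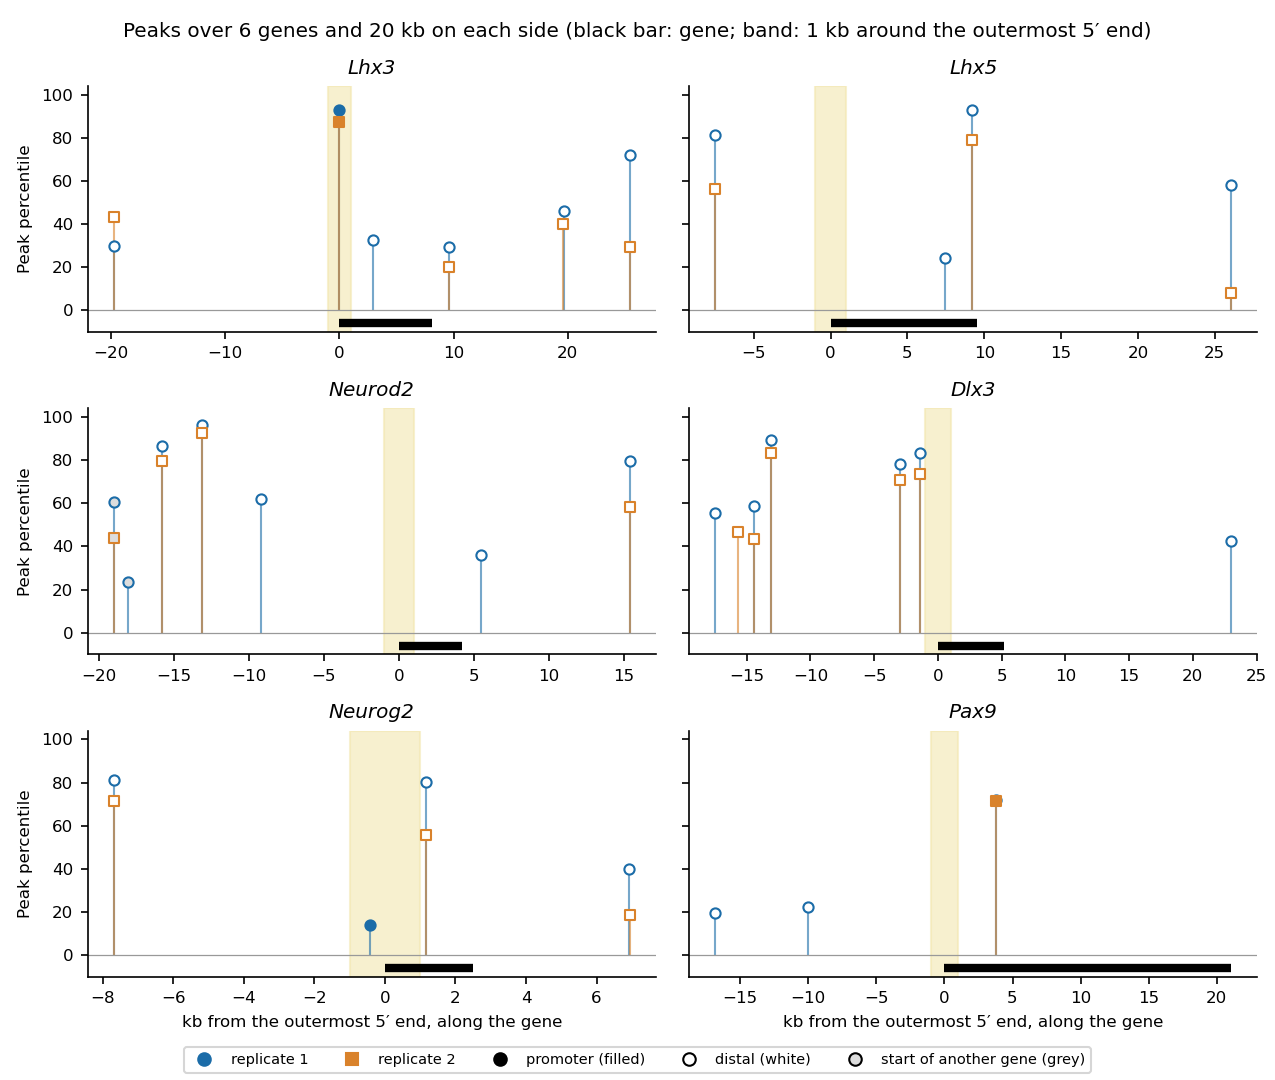
Peaks within 6 regulators and 20 kb beyond their ends. The horizontal axis is the distance in kb from the outermost 5′ end along the gene, the vertical axis the percentile of the peak in its own library; circles are replicate 1, squares replicate 2, filled marks promoter peaks, white marks distal peaks and grey marks peaks at the start of another gene. The black bar is the gene and the band 1 kb around the outermost 5′ end. Lhx5, Neurod2 and Dlx3 have an empty band and distal peaks in both libraries, and the promoter peak of Pax9 lies at an inner 5′ end.

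Together the spans of the 46 genes held 125 different peaks in replicate 1 and 91 in replicate 2. Of these, 33 and 20 were promoter peaks and 72 and 51 distal peaks, and the rest lay at the starts of other genes. A peak of the other library overlapped 67.2% and 91.2% of them, a mean of 79.2% ± 17.0 (SD, n = 2). Over all peaks the shares were 73.6% and 89.8%. Of the promoter peaks of the regulators, 19 of 33 in replicate 1 (57.6%) and 19 of 20 in replicate 2 (95%) had a partner, against 78.9% and 93.4% of all promoter peaks. Footprints were found in promoter peaks of 20 regulators in replicate 1 and 16 in replicate 2, which were 87.0% and 100% of those open, against 99.2% and 98.4% of all open genes. Per kb of promoter peak there were 11.4 and 13.8 footprints at the regulators, against 13.5 and 14.1 over all promoter peaks, and per kb of distal peak 17.2 and 15.5, against 14.2 and 12.8. The footprint files give no value per footprint, so only their number was read.

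REST is the zinc finger repressor that silences neuronal genes outside neurons, and its 16-base consensus, of which 14 letters are fixed, was searched on both strands and present in several of these peaks. It was found in 5 of the 125 peaks in replicate 1 (4%) and in 4 of the 91 in replicate 2 (4.40%), against 0.246% and 0.195% of all peaks. A match describes letters and shows no binding. The Rest gene itself was open at percentiles 81.7 and 77.2, a value named in addition because of these letters, which were chosen after the files had been seen. The genome held 376 exact matches, of which 5 lay within the spans of the regulators, 1.86 per Mb against 0.138 per Mb of genome.

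The 5 matches were at Lhx3, Pax5, Lhx5, Neurod2 and Pou4f3, and 4 of them are printed with 5 bases on each side, 5′ to 3′ on the strand given, with the match in capitals. That of Pou4f3 is given without its sequence.

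Lhx3, chr2:26208276-26208291, minus strand: ctcctTCAGCACCGCGGACAGcgcca
Pax5, chr4:44511880-44511895, plus strand: atgttTCAGCACCACGGACAGcggca
Lhx5, chr5:120424187-120424202, plus strand: cggctTCAGCACCGCGGACAGctccc
Neurod2, chr11:98314245-98314260, minus strand: tggttTCAGCACCACGGACAGagaca

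The Lhx3 match lay in the promoter peak, across the 5′ end. The Lhx5 match lay at −7505 bp, in a distal peak at percentiles 81.4 and 56.5, and the Neurod2 match at 15396 bp, past the end of the gene, in a distal peak at 79.6 and 58.5. The Pou4f3 match lay at 1742 bp from the outermost 5′ end, in the distal peak at 74.9 and 46.1. In these 4, all 16 bases were covered by footprints in both libraries. The Pax5 match lay 198600 bp from the outermost 5′ end, past the end of the gene, in a peak of replicate 1 (63.8) and outside the peaks of replicate 2, with 16 and 15 bases in footprints.

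Matches of this kind were often open in lung across the genome as well. Of the 376 matches, 64.4% overlapped a peak in replicate 1 and 42.6% in replicate 2, against 5 and 4 of the 5 at the regulators. Of those in a peak, 77.3% and 57.5% were wholly covered by footprints. With up to 1 mismatch the letters were in 9 of 125 and 7 of 91 peaks of the regulators (7.2% and 7.69%), against 0.575% and 0.441% of all peaks, adding Pou4f1 and Pou4f2. With up to 2 mismatches they were in 11 and 8 peaks (8.8% and 8.79%), against 1.07% and 0.88%, adding Neurod1.

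**Figure D4:**
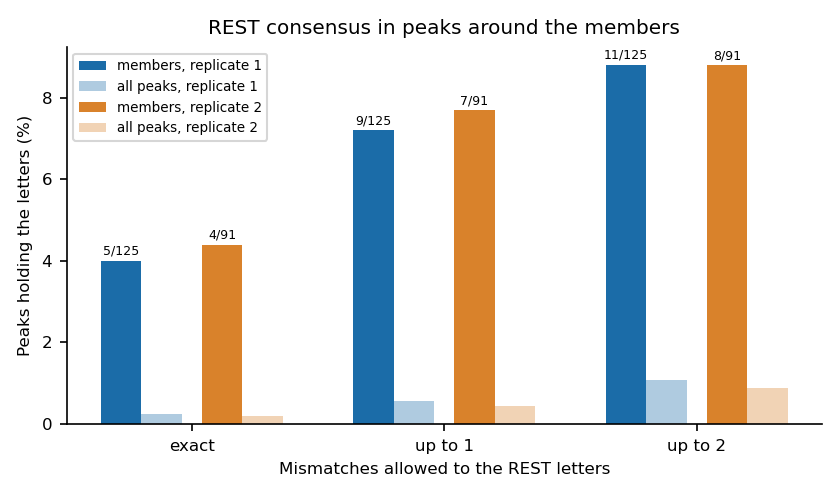
Share of peaks that hold the REST letters (vertical axis, percent) with no, up to 1 or up to 2 mismatches (horizontal axis), for peaks of the 46 regulators (dark bars) and all peaks (light bars) in replicate 1 (blue) and replicate 2 (orange). Numbers above the dark bars give peaks with the letters over all peaks of the regulators, from 5/125 and 4/91 for exact matches to 11/125 and 8/91.

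The letters of CTCF, the zinc finger protein that bounds chromatin loops, were more frequent in the distal peaks of the regulators than in others. The 10-base consensus, of which 7 letters are fixed, was found on either strand in 13 of 72 distal peaks in replicate 1 (18.1%) and 10 of 51 in replicate 2 (19.6%), against 9.33% and 9.58% of all distal peaks. The highest Neurod2 and Lhx5 distal peaks and both Neurog2 peaks named above held it. In promoter peaks of the regulators the CTCF letters were in 0 of 33 and 1 of 20 (5%), against 8.07% and 8.40% of all promoter peaks. The spans of the regulators held 110 matches per Mb, against 68.0 per Mb of genome. Of the matches in these spans 5.41% and 4.05% overlapped a peak, against 4.83% and 4.06% across the genome. None of these differences was tested, and the peaks of neighbouring genes overlap in part. No match of CTCF or REST letters overlapped a match of another of the 12 sequences searched within these peaks.

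Letters of other factors differed in direction in the distal peaks of the regulators, and those of E-box, forkhead, AP-1 and TEAD factors were less frequent than over all distal peaks in both libraries. The E-box letters CAGCTG, used by basic helix-loop-helix factors, were in 7 of 72 distal peaks in replicate 1 (9.72%) and 8 of 51 in replicate 2 (15.7%), against 19.5% and 20.8% of all distal peaks. The forkhead letters TGTTTAC were in 0 of them, against 3.59% and 3.88%. The AP-1 letters TGANTCA were in 4.17% and 3.92%, against 7.22% and 7.43%. The TEAD letters GGAATG were in 9.72% and 7.84%, against 12.4% and 12.6%. The homeodomain letters TAATTA, a core that many of these proteins bind, were in 2 of 72 and 0 of 51, against 1.93% and 1.94%. The KLF/SP letters GGGCGGGG were in 6.94% and 3.92% of the distal peaks, against 3.05% and 3.06%, but in 4 of 33 (12.1%) and 2 of 20 (10%) of the promoter peaks, against 21.8% and 23.4% of all promoter peaks. The ETS letters CCGGAAG were in 4.17% and 1.96% of the distal peaks, against 2.01% and 2.20%, and in 3 of 33 (9.09%) and 3 of 20 (15%) of the promoter peaks, against 9.49% and 10.7%. The NRF1 letters were in 1 distal peak of each library (1.39% and 1.96%), against 0.36% and 0.39%, and in 2 promoter peaks of each (6.06% and 10%), against 5.24% and 6.04%. The GATA letters AGATAAG were in 1 and 2 distal peaks (1.39% and 3.92%), against 1.96% and 2.15%, and in no promoter peak, and the NFI letters were in none of either kind. In promoter peaks of the regulators the forkhead letters were in 3.03% and 10%, against 2.14% and 2.18% of all promoter peaks. The E-box letters were in 18.2% and 10% of them, against 14.6% in each library. For TEAD the promoter shares were 9.09% and 5%, against 8.79% and 8.43%, and for AP-1 3.03% and 0%, against 4.07% and 3.98%. These counts are small, and no difference among them was tested.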

How the data were processed

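DNase-seq of lung was analysed in 2 libraries of 1 group. The authors aligned the reads to mm10 and called each library on its own, per the file headers and the listings that accompany the files. The aligner and the peak caller were not given in the sources used here. Deposited peak lists give a signal value per peak, called the score, on a scale the authors do not state, so scores were ranked within a library. The shorter of 2 deposited lists per library was used, and the longer ones hold 145663 and 117300 peaks. The authors' false discovery rate runs (p-value type, listed at 0.05 or below) and footprints (326313 and 252174, all at the constant p-value threshold 0.01) were deposited per library. No counts are given, so depth is unknown and no interval was computed.

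The 5′ ends came from GENCODE M21, whose GRCm38 coordinates are those of mm10. Distal peaks lay over 1 kb from every 5′ end of 32093 protein-coding and long noncoding genes. A peak was shared when libraries overlapped by at least 1 base, and the percentile is the rank of a score in its own list. The 46 genes, the 18 comparison lists (the Hox genes and 129 genes in other lists) and the tests were chosen with earlier results of these data known, and the 12 consensus sequences (CTCF, REST, NRF1, NFI, GATA, and those named with their letters) after the files had been seen. No list was tested. Full values were given for the 12 genes open in both libraries with the highest mean percentile, for all open in 1 library, all with 3 or more shared distal peaks and all closed; of other lists, the 2 highest and up to 2 closed genes were named. Interval and promoter counting was checked on simulated data. Python 3.11.15, numpy 2.4.6, pandas 2.3.3, pysam 0.24.0 and matplotlib 3.10.9 were used. Counts cover all genes of each set, and some genes are not reported here by name.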

Additional observations from a re-analysis of the deposited data

How the results depend on the processing

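The share of regulators with a promoter peak (42.4%, mean of 2 libraries) was 59.8% with a 2500 bp window (all genes 68.5%), 26.1% with the outermost 5′ end alone (60.6%), 57.6% with the longer peak lists (69.5%) and 25% with peaks above the median score (57.7%), and lay below that of all genes under each of these. With the outermost 5′ end 10 regulators were open in both libraries. The regulators with a footprint in a promoter peak numbered 10.5 on average with the outermost 5′ end and 11.5 with peaks above the median score, against 18. The median percentile was 71.5 with peaks above the median score, against 55.6, which that choice raises by its own construction. The median distal count of 1 was 1.5 with the longer lists, 0.5 with peaks above the median score, 0 without flanks and 5.25 with flanks of 100 kb. With peaks above the median score, Olig1, Pax6, Pou4f1 and Six2 were open in neither library, and with 2500 bp Dlx2, Dlx3, Neurod1, Pax2, Pax7, Pou4f2 and Pou4f3 were open in both. In single libraries the share ranged from 34.8% to 50%, the percentile from 46.2 to 64.9, the footprint count from 16 to 20 and the distal median from 1 to 1. The cause of these shifts was otherwise not tested. Depth is unknown, so the absence of a peak is the absence of a call. No paired analysis was possible because there is 1 group.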
